A study of Mus musculus with 45 samples.

Results

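Embryoid bodies (EBs) formed in serum were compared with cells differentiated in N2B27 over the days that follow the release of mouse embryonic stem cells (ESCs) from self-renewal. The comparison holds the EB libraries of days (d) 1, 1.5 and 2 and the Neural libraries of the same days, which is 6 EB and 6 Neural libraries, or 12 of the 45 libraries of the series. All of them come from wild-type male E14tg2a ESCs of the 129/Ola strain. Before d0 the cells were kept either in 2iL, which is serum-free N2B27 with LIF and the inhibitors CHIR99021 (of Gsk3) and PD0325901 (of Mek), or in SL, which is medium with serum and LIF. For EBs, cells were placed in low-attachment dishes in serum medium without LIF. For the Neural course, cells were plated on gelatin in N2B27 alone. Each EB library was paired with the Neural library of the same starting medium and day, which gives 6 pairs. Each medium, course and day has 1 library of 1 cell line, and no source used here says whether the days of a course came from separate cultures or names library preparation batches, so p-values measure only the spread between these libraries. Serum, the basal medium and growth in suspension change together between the courses and cannot be told apart. Another course, adherent culture in N2B27 with Fgf2 and ActivinA (FA, labelled EpiSC), has 6 libraries of the same days, which are given as values beside the results and were not part of the test.

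As background, ESCs in 2iL or SL hold the naive state of the preimplantation epiblast and, once released, pass through a formative stage that resembles the epiblast just after implantation. Which lineage they then take depends on signals of the BMP, Nodal, Fgf, Wnt and retinoic acid pathways, some made by the cells and some supplied by the medium. Serum brings lipoproteins, growth factors and hormones, while N2B27 is a defined medium with insulin and other supplements that is used to let ESCs enter the neural lineage.

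The libraries of the comparison held between 15204005 and 39253633 reads counted on genes, and the 3 EB libraries from 2iL and the d2 EB library from SL were the deepest. Levels are given in CPM, a count scaled to the library total with TMM factors. At these depths, 3 counts correspond to 0.0764 to 0.197 CPM. Pluripotent cell markers summed to 1922 to 2319 CPM in EB libraries and to 1789 to 2061 CPM in Neural libraries. Primitive endoderm markers summed to 12.5 to 1885 CPM in EB and 18.1 to 1007 CPM in Neural libraries. Of these 7 markers 3 were called higher in EBs and 1 lower, beside 18.5% and 16.1% of all genes tested. Blood markers were low, at most 13.2 CPM in sum, with Hba-x at 0 reads, and neuron markers summed to 17.9 to 38.4 CPM in EB and 39.3 to 60 CPM in Neural libraries. At d0 the neuron markers summed to 28.3 to 66.5 CPM, and of the 5 tested 0 were called higher in EBs and 1 lower. Markers of neural progenitor cells summed to at most 43.7 CPM in EB and to 26.9 to 96.2 CPM in Neural libraries, and Hes5 and Fabp7 among them stayed below 0.5 CPM in all 12 libraries. The courses also differed in RNA composition. Rn7sk and Rn7s1 made up 2.18% to 3.77% of counts in EB and 3.92% to 5.64% in Neural libraries (exact two-sided sign-flip permutation test over 6 pairs, p = 0.0312, the smallest it can give, and 0.0625 adjusted over 6 properties). The 10 genes with the most reads took 8.65% to 13.7% and 14.9% to 22.1%. Gaps of this kind were already present at d0 between the 2iL libraries that start the EB and Neural courses, at 2.47% and 4.38% for Rn7sk and Rn7s1, at 9.79% and 16.2% for the 10 genes with the most reads, and at 4.71% and 2.33% for the mitochondrial genome, which held 2.03% to 3.66% and 0.982% to 2.38% at d1 to d2. For this reason the difference between these d0 libraries is given beside the main groups of genes, and the part of library composition in the results was otherwise not tested.

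Of 14018 genes tested, 2591 were higher in EBs (18.5%) and 2261 were lower (16.1%) by edgeR's quasi-likelihood test with the pair as a block, at an adjusted p (Benjamini-Hochberg over all genes tested) under 0.05. All adjusted p-values below come from this fit unless another is named. The shares of 18.5% and 16.1% are the background for every list count below, also where they are not repeated. Without the block, 1094 genes were higher and 916 lower. At least a 2-fold difference was found for 497 of the genes higher and 417 of the genes lower. The direction was the same in all 6 pairs for 2161 and 1895 of them. The median log2 difference over all genes tested was 0.0024. In the d0 libraries from 2iL, the same genes differed between the courses by a median log2 value of 0.076 (genes higher) and -0.054 (genes lower), against 0.477 and -0.52 at d1 to d2.

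**Figure D1:**
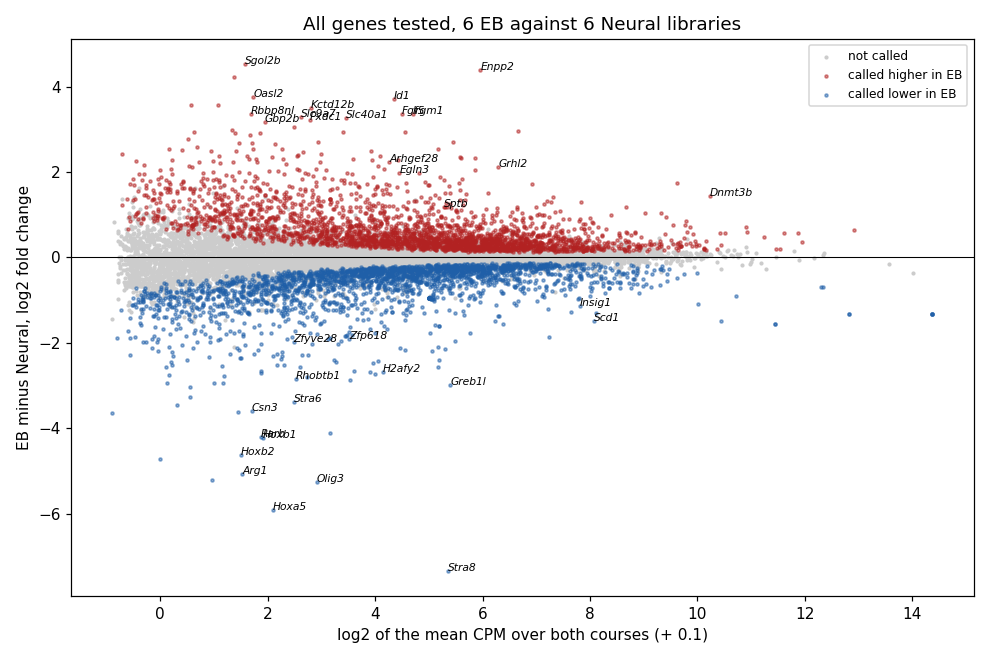
EB minus Neural log2 fold change (y axis) of the 14018 genes tested against their mean level (x axis, log2 CPM), with 6 libraries in each course. Red and blue points are genes called higher and lower in EBs, grey points are not called, and the genes with the largest changes or smallest p-values are named. Among the genes named in the text, Stra8 lies lowest at -7.33 and Sgol2b highest at 4.53.

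The largest falls included genes of the retinoic acid pathway and Hox genes. Retinoic acid is made from vitamin A by retinol and retinal dehydrogenases, is broken down by Cyp26 enzymes, and acts through nuclear receptors that bind direct repeats next to their target genes. Of 17 list members tested, 14 were lower in EBs, 1 was higher and 2 did not pass, with a list median of -1.4 on the log2 scale. At d0 the list median between the 2iL libraries of both courses was -0.012. The promoters of Rarb and Cyp26a1 are shown because they hold the classical element of this pathway and because their transcripts behaved differently here. The 120 bases before the start site are shown (RefSeq, GRCm38.p6), and capitals mark the DR5 retinoic acid response element, which was searched on both strands. The Rarb stretch is chr14:16575477-16575596 on the negative strand and the Cyp26a1 stretch is chr19:37697688-37697807 on the positive strand.
Rarb: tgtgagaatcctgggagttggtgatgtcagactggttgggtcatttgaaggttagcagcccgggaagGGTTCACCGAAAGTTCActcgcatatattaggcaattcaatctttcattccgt
Cyp26a1: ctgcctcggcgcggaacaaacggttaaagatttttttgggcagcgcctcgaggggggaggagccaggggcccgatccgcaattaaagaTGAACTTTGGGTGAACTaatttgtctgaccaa
The match lies 53 to 37 bases before the start site in Rarb, and 32 to 16 bases before it, on the opposite strand, in Cyp26a1. Of the 19 genes of the list 15 had a promoter in the table, and these were the 2 that held the element. The whole promoter sequence was searched, not only the 120 bases shown, and 0.0974% of all 32851 promoters hold the element.

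Stra8, a retinoic acid induced gene of germ cells at chr6:34920163-34939344 (GRCm38), was at 0.126 CPM in the lowest, 0.371 in the median and 1.32 in the highest EB library, and at 67.6, 79.8 and 108 CPM in Neural libraries. The groups did not overlap, and Stra8 was lower by -7.33 ± 0.35 (log2 and SE, 161-fold, adjusted p = 2.1e-05). It was at 19.2 to 23.8 CPM in the d0 libraries in 2iL and at 11.4 CPM in SL, so its level was below that of d0 in every EB library and above it in every Neural library. Rarb, a retinoic acid receptor, was at 0.127, 0.325 and 0.658 CPM (lowest, median, highest) in EB and at 3.3, 6.12 and 11.8 CPM in Neural libraries. These groups did not overlap either (-4.20 ± 0.29, adjusted p = 6.6e-05). Dhrs3, which turns retinal back to retinol, was 4.11-fold lower in EBs (2.79 ± 1.25 against 11.2 ± 3.64 CPM, SD, n = 6 each, adjusted p = 0.0001). Stra6, the cell surface receptor for retinol bound to its carrier, was at 0.51, 0.581 and 1.23 CPM in EB and at 2.59, 5.09 and 32.6 CPM in Neural libraries, without overlap (10.4-fold lower, adjusted p = 0.0005).

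Hoxb1 (-4.23 ± 0.60), Hoxb2 (-4.63 ± 0.50) and Hoxa5 (-5.91 ± 0.40) were lower in EBs, with adjusted p-values of 0.0014, 0.00045 and 6.1e-05. Hoxb2 was at 0.0787 to 0.339 CPM in EB and at 0.57 to 10.7 CPM in Neural libraries. Hoxa5 was at 0 to 0.509 CPM in EB and at 1.62 to 15.5 CPM in Neural libraries. EB levels this near the floor of 3 counts leave the size of these falls poorly measured. The courses overlapped for Hoxb1, which was low in both at d1 from 2iL, at 0.0898 CPM in the EB and 0.19 CPM in the Neural library. By d2 it was at 0.352 CPM in EB and 18.7 CPM in Neural libraries from 2iL. Meis2, a partner of Hox proteins, was 5.29-fold lower (adjusted p = 0.01). Olig3, a transcription factor of the dorsal neural tube, was lower by -5.26 ± 0.66 (adjusted p = 0.00081). It was at 0 to 1.53 CPM in EB and at 0.971 to 41.1 CPM in Neural libraries, so the courses overlapped.

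Rdh10 and Cyp26a1 differed from these genes. Rdh10, which makes retinal from retinol, was the member higher in EBs, at 7.42, 13.8 and 21.2 CPM (lowest, median, highest) against 5.51, 7.88 and 11.2 CPM in Neural libraries (0.73 ± 0.14, 6 of 6 pairs, adjusted p = 0.0044). Cyp26a1, which breaks down retinoic acid, did not pass (0.05 ± 0.72, adjusted p = 0.97). From 2iL it was at 0.419, 0.452 and 2.77 CPM in EBs at d1, d1.5 and d2 and at 2.14, 6.35 and 4.06 CPM in Neural libraries, while from SL it was at 11.1, 21.2 and 38.8 CPM in EBs and at 6.58, 7.75 and 8.99 CPM in Neural libraries. EBs were thus lower in the 3 pairs from 2iL and higher in the 3 from SL, and this difference between media (-3.43 on the log2 scale) had an adjusted p of 0.07. In FA, whose base is also N2B27, Stra8 was at 17.6 to 61.4 CPM, Rarb at 1.18 to 6.88 CPM and Stra6 at 1.31 to 8.28 CPM, above every EB library for each of these genes.

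**Figure D2:**
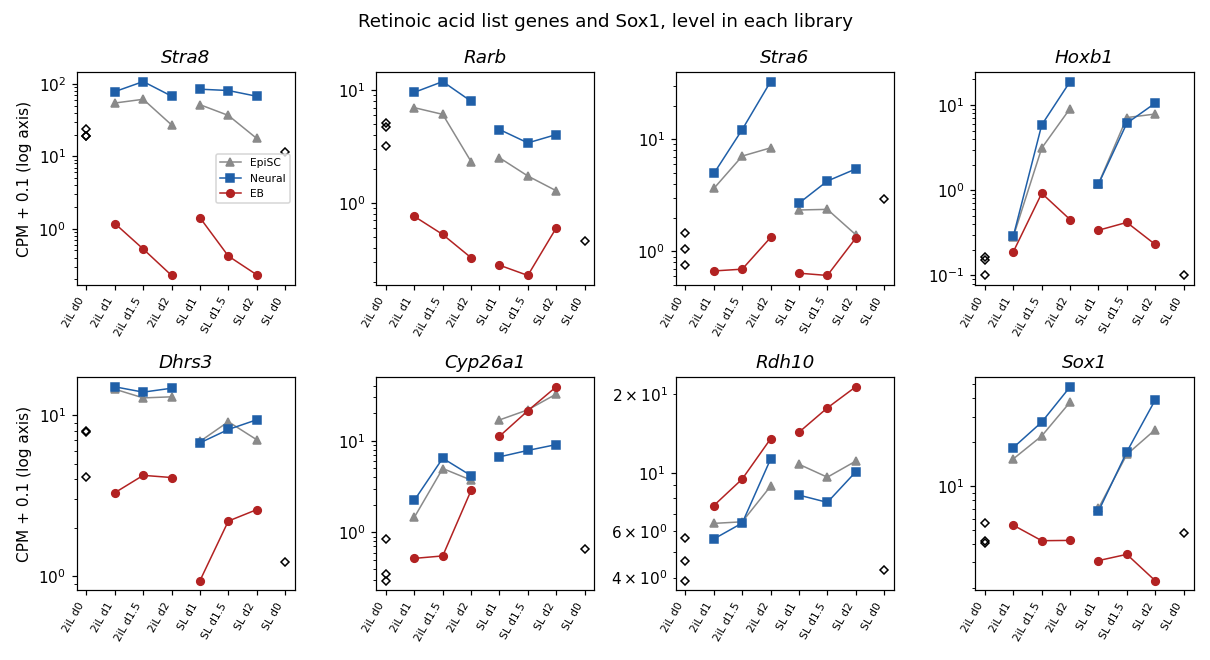
Level of 7 retinoic acid list genes and of Sox1 (CPM + 0.1, log axis) in each library of d1, d1.5 and d2 from 2iL and SL, for EB (red circles), Neural (blue squares) and EpiSC (FA, grey triangles), with the undifferentiated libraries as open diamonds at d0. For Stra8, Rarb and Stra6 all 6 EB points lie below all 6 Neural points, whereas for Cyp26a1 the EB point of each day lies below the Neural point of that day from 2iL and above it from SL.

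Genes of sterol synthesis formed the most uniform group. When membranes hold much cholesterol, Insig proteins keep the transcription factor Srebp2 in the endoplasmic reticulum, and when they hold little, Srebp2 is released and raises the enzymes of cholesterol synthesis and Insig1 itself. All 25 members of the list were tested and 25 of 25 were lower in EBs, with differences between -1.25 and -0.3 and a median of -0.79. In both media taken alone, 22 of 25 passed, with medians of -0.78 (2iL) and -0.79 (SL). The d0 libraries from 2iL already differed in the same direction by a list median of -0.23. The promoter of Hmgcs1 is shown as the member whose start region holds the sterol regulatory element, TCACNCCAC, searched on both strands, at 137 to 129 bases before the start site (capitals, chr13:119690164-119690283, positive strand, RefSeq, GRCm38.p6).
Hmgcs1: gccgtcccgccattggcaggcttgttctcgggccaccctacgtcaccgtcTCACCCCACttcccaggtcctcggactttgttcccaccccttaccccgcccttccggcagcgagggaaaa
Of the 25 genes 17 had a promoter in the table, and 1 of them held these letters, which 1.24% of all promoters hold.

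Insig1 was at 96.6, 137 and 188 CPM (lowest, median, highest) in EB libraries and at 207, 311 and 406 CPM in Neural libraries. The courses did not overlap, and Insig1 had the smallest p of the named genes lower in EBs (-1.13 ± 0.05, 6 of 6 pairs, adjusted p = 2e-05). Between the d0 libraries from 2iL it already differed by -0.49. Hmgcs1, which makes HMG-CoA, was at 250, 338 and 489 CPM in EB and at 494, 595 and 770 CPM in Neural libraries (-0.82 ± 0.06, adjusted p = 0.0001). In both courses and from both media Hmgcs1 and Insig1 were higher at d2 than at d1, and lower in EBs on each day. Mvk (-0.93), Lss (-0.92), Nsdhl (-0.89) and Hsd17b7 (-1.01), enzymes of the same pathway, were lower in 6 of 6 pairs. So was Srebf2, which encodes Srebp2 (-0.79 ± 0.06). At d0 from 2iL, Mvk already differed by -0.64, Lss by -0.36, Nsdhl by -0.33, Hsd17b7 by -0.16 and Srebf2 by -0.1.

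Fatty acid synthesis moved the same way, with 11 of 14 members lower, 0 higher and a median of -0.51 (-0.072 at d0). Scd1, which desaturates stearate, was at 108, 133 and 172 CPM in EB and at 305, 370 and 541 CPM in Neural libraries, without overlap (-1.49 ± 0.07, adjusted p = 2.2e-05). Scd2, its paralog, was 2.8-fold lower (adjusted p = 0.00022). Acss2, which makes acetyl-CoA from acetate (-1.20 ± 0.12), Srebf1 (-0.63 ± 0.06) and Fasn, the fatty acid synthase (-0.40 ± 0.07), were lower in 6 of 6 pairs. FA libraries were at 183 to 360 CPM for Insig1 and at 272 to 426 CPM for Scd1. In the sterol efflux list of 6 genes, 3 were higher and 2 lower. Apoe, the apolipoprotein that carries cholesterol away, was 2.08-fold higher in EBs (131 to 363 against 71.7 to 130 CPM, adjusted p = 0.00043), while at d0 from 2iL it was lower in the library of the EB course, at 172 against 400 CPM.

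BMP and Nodal ligands act through Smad proteins, and Id genes, which encode inhibitors of bHLH transcription factors, are direct targets of BMP. In the BMP list 8 of 15 members were higher and 5 lower, with a median of 0.92 (0.15 at d0). Id1, at chr2:152736251-152737410, was at 25.1, 39.2 and 53.2 CPM (lowest, median, highest) in EB and at 1.09, 2.92 and 4.36 CPM in Neural libraries. Every EB library was above every Neural library (3.72 ± 0.37, 13.2-fold, adjusted p = 0.00033). Id1 was at 2.03 to 2.45 CPM in the 2iL libraries of d0 and at 41 CPM in the 1 SL library of d0. What set these levels was not tested. Id3 (1.94 ± 0.28) and Id2 (1.80 ± 0.27) were higher in 6 of 6 pairs, Id3 with an overlap of the courses between the SL d2 EB library (11.4 CPM) and the 2iL d1 Neural library (12.7 CPM). Msx1, a homeobox target of BMP, was 6.42-fold higher (adjusted p = 0.0015). Smad7, the inhibitory Smad induced by both pathways, was 3.55-fold higher (adjusted p = 0.00036). Tbx3, which is also a gene of naive ESCs, was lower in 6 of 6 pairs (adjusted p = 0.0073). The other lower members were Smad6, an inhibitory Smad, the homeobox gene Msx2, Gata3 and the ligand Bmp7, named after their values were seen because they differ in direction from most of the list, with adjusted p-values of 0.019 to 0.039.

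In the Nodal and Activin list, 9 of 12 members were higher and 1 lower, with a median of 1.2 (-0.021 at d0). Lefty2, a secreted Nodal inhibitor induced by Nodal, was at 33.4, 55.4 and 147 CPM in EB and at 1.95, 9.91 and 27.5 CPM in Neural libraries. The courses did not overlap (2.71 ± 0.56, adjusted p = 0.0068), although the pairs ranged from 0.53 to 5.16 on the log2 scale, and reads of Lefty2 and its near-identical neighbour Lefty1 may be split between them. Skil, a Smad corepressor (1.18 ± 0.12), Tdgf1, the Nodal coreceptor Cripto (1.30 ± 0.26), and Nodal itself (0.72 ± 0.17) were higher in 6 of 6 pairs. The lower member was Inhbb, a subunit of activin B (-1.79 ± 0.46, adjusted p = 0.017), which did not pass without the 2iL d1 pair (adjusted p = 0.063). In FA, where ActivinA was added, Lefty2 was at 31.7 to 222 CPM and Smad7 at 55.7 to 81.8 CPM, while Id1 was at 0.988 to 5.11 CPM.

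In the list of Erk response genes, 8 of 22 members were higher, 4 lower and 10 did not pass (median 0.18, 0.045 at d0). Fgf5, a ligand that marks the postimplantation epiblast, was at 11.7, 41 and 80.7 CPM in EB and at 1.94, 4.05 and 4.81 CPM in Neural libraries. The courses did not overlap (3.37 ± 0.20, 10.3-fold, adjusted p = 4.9e-05). Fgf8, a ligand of the primitive streak and of brain organisers, was 5.71-fold higher (adjusted p = 0.0014) at low levels, at most 4.73 CPM. Fgf4, the main Erk-activating ligand of ESCs, was at 175 to 218 CPM in EB and at 35.5 to 150 CPM in Neural libraries (1.25 ± 0.25, adjusted p = 0.0059). Of genes that answer to Erk, Junb (1.47 ± 0.14), Spry1 (1.04 ± 0.20) and Etv5 (0.60 ± 0.11) were higher, and Dusp5, an Erk phosphatase (-0.83 ± 0.17), Spred1, an inhibitor of the pathway (-0.90 ± 0.20), and Etv4 (-0.40 ± 0.10) were lower. Beside 18.5% higher and 16.1% lower over all genes tested, 2 of 11 Wnt targets were higher and 3 lower. Of these, Cdx1, a caudal homeobox gene, was at no more than 0.718 CPM in EB and at 0.721 to 1.43 CPM in Neural libraries (-2.29 ± 0.56, adjusted p = 0.014), and Sp8 was 2.94-fold lower (adjusted p = 0.0039).

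**Figure D3:**
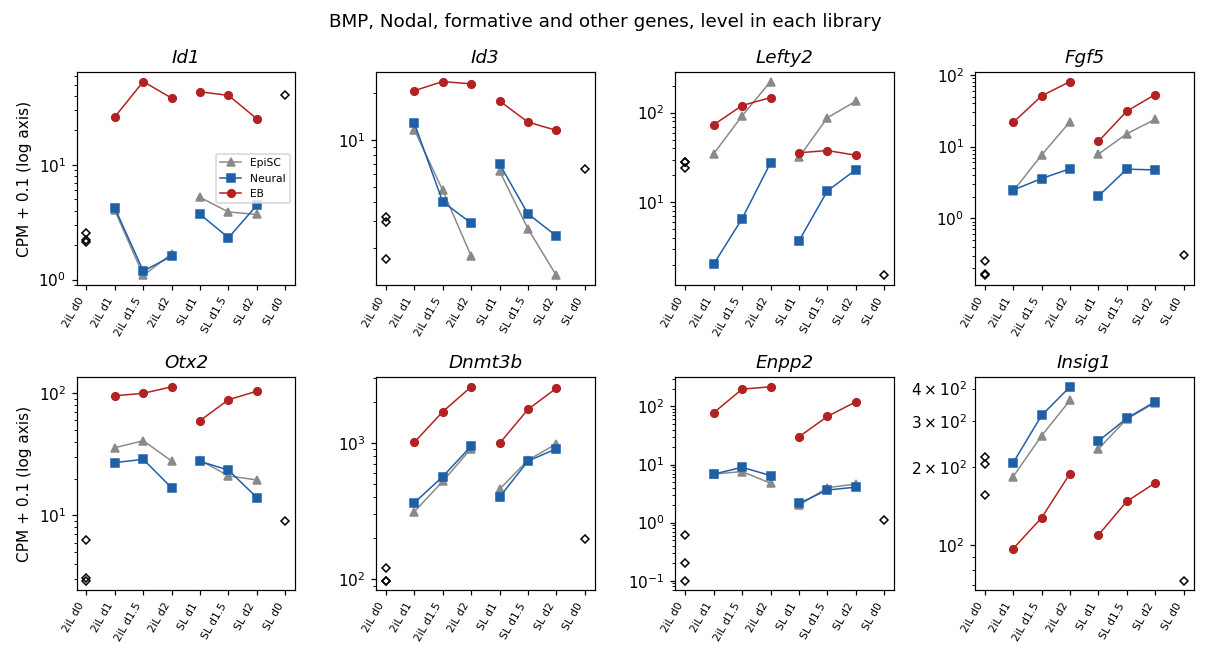
Level of 8 genes (CPM + 0.1, log axis) in each library of d1, d1.5 and d2 from 2iL and SL, for EB (red circles), Neural (blue squares) and EpiSC (FA, grey triangles), with the undifferentiated libraries as open diamonds at d0. For Id1, Fgf5, Otx2, Dnmt3b and Enpp2 all 6 EB points lie above all 6 Neural points, and for Insig1 they lie below them.

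Of 17 genes of the formative epiblast, 8 were higher in EBs and 3 lower, with a median of 0.36 (-0.034 at d0). Grhl2, which opens epithelial enhancers, had the smallest p of the named genes. It was at 88.8, 127 and 151 CPM (lowest, median, highest) in EB and at 18.2, 32.9 and 34.2 CPM in Neural libraries, so the courses were far apart relative to their spread (2.11 ± 0.08, 4.32-fold, adjusted p = 1e-05). Otx2, a homeobox gene that directs the exit from the naive state and later marks the forebrain, was at 59.7, 97.9 and 113 CPM in EB and at 13.9, 25.2 and 28.7 CPM in Neural libraries, without overlap (2.05 ± 0.22, adjusted p = 0.00041). Dnmt3b, a de novo DNA methyltransferase, was at 990, 1722 and 2571 CPM in EB and at 364, 650 and 944 CPM in Neural libraries. It was 2.69-fold higher in EBs, with pairs between 1.26 and 1.58 on the log2 scale (adjusted p = 2e-05). Pou3f1 (1.16 ± 0.14) and Foxd3 (0.73 ± 0.13) were higher in 6 of 6 pairs, and Sox3, which is also a gene of neural progenitors, was lower (-0.67 ± 0.15, adjusted p = 0.0095).

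In the naive pluripotency list 6 of 16 members were lower, 1 higher and 9 did not pass, with a median of -0.41 (0.0028 at d0). Fbxo15, a target of Oct4 and Sox2, was 3.42-fold lower in EBs (10.9 to 43.3 against 46.9 to 144 CPM, adjusted p = 0.00023). Tet2, which oxidises methylated cytosine, was 2.42-fold lower (adjusted p = 0.0043), and Klf4 1.54-fold lower (adjusted p = 0.008). Nanog (0.21 ± 0.19, adjusted p = 0.42), Esrrb (0.14 ± 0.22, adjusted p = 0.65) and Zfp42, also known as Rex1 (-0.31 ± 0.15, adjusted p = 0.13), did not pass. All of these were expressed in both courses, Nanog for example at 65.5 to 167 CPM in EB and 36.5 to 249 CPM in Neural libraries. Of general pluripotency genes 3 of 9 were higher and 2 lower, beside 18.5% and 16.1% of all genes tested. Pou5f1 (Oct4) did not pass (0.18 ± 0.07, adjusted p = 0.097), and Sox2 was 1.44-fold higher in EBs (adjusted p = 0.0038). Targets of LIF and Stat3 had 6 of 13 members lower and 3 higher (median -0.45, 0.083 at d0), and LIF was absent from both courses. Pim1 (-1.11 ± 0.18) and Socs3 (-1.37 ± 0.30) were lower in 6 of 6 pairs. At d0 from 2iL, Pim1 already differed between the courses by -0.67, and Socs3 by 0.55.

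Sox1, the earliest gene particular to the neural plate, was at 2.15, 3.72 and 5.3 CPM in EB and at 6.63, 22.9 and 47.9 CPM in Neural libraries. All EB libraries were below all Neural libraries (-2.67 ± 0.36, 6.38-fold, adjusted p = 0.0012). Pax6, a regulator of neural progenitors and the eye, was 3.56-fold lower (4.92 ± 2.33 against 16.9 ± 5.65 CPM, SD, n = 6 each, adjusted p = 0.00012), and Ncam1 (-1.09 ± 0.22) and Msi1 (-0.95 ± 0.13) were lower too. Ncam1 was at 43.4 to 47.9 CPM at d0 in 2iL, 17.6 CPM at d0 in SL and 8.33 to 24.7 CPM in Neural libraries. Msi1 was at 21.7 to 29.5 CPM, 10.5 CPM and 4.85 to 23.3 CPM in the same libraries. In the neural progenitor list as a whole 4 of 7 members were lower and 2 higher, with a median of -0.95 (-0.12 at d0). Among the higher ones was Hesx1, a gene of the anterior neural border and pituitary, which was at no more than 2.1 CPM (1.57 ± 0.30). Of 7 primitive streak genes tested, 2 were higher and 0 lower (median 0.61, 0.26 at d0). Over all genes tested, 18.5% were higher and 16.1% lower. The 2 higher streak genes were Fgf8 and Eomes, a T-box gene of mesendoderm. Eomes was at 13.7, 16.3 and 35.7 CPM in EB and at 5.99, 8 and 9.85 CPM in Neural libraries (1.29 ± 0.15, adjusted p = 0.00053). At d0 from 2iL, Eomes already differed by 0.68, at 8.72 CPM in the EB and 5.39 CPM in the Neural library. Bulk RNA cannot tell fewer cells of a type from less RNA per cell.

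In the list of extraembryonic endoderm, 7 of 18 members were higher in EBs and 1 lower, with a median of 0.36, against 0.4 between the d0 libraries. Hnf4a, a nuclear receptor of visceral endoderm and liver, was at 1.83 to 4.6 CPM in EBs from 2iL and at 25.3 to 39.2 CPM in EBs from SL, against 0.428 to 3 and 6 to 7.7 CPM in Neural libraries (1.97 ± 0.23, 6 of 6 pairs, adjusted p = 0.00065). Libraries from SL were thus the higher ones in both courses. Cubn, the cubilin receptor of visceral endoderm, was at 1203 to 1466 CPM in EBs from SL and at 526 to 756 CPM in Neural libraries from SL, and it was already at 255 CPM at d0 in SL. Cubn (1.05 ± 0.20), Dab2 (1.05 ± 0.18) and Amn (1.21 ± 0.19) were higher in 5 of 6 pairs, the d1 pair from 2iL being the exception for Cubn and Dab2 and the d1.5 pair from 2iL for Amn. At d0 from 2iL, Dab2 already differed by 1, Cubn by -0.92 and Amn by -0.95, all at 1.5 CPM or less. With medium and day terms in place of the block, Cubn (1.21, adjusted p = 0.099) and Dab2 (1.10, adjusted p = 0.056) did not pass. Ttr, which encodes transthyretin, was 4.93-fold higher (adjusted p = 0.0019). The lower member was Gata6, which specifies primitive endoderm (-1.11 ± 0.26, 6 of 6 pairs, adjusted p = 0.012).

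Of 20 matrix and adhesion genes 4 were higher in EBs and 2 lower, near the shares of all genes, with a median of 0.063 (0.25 at d0). The epithelial adhesion molecule Epcam (0.87 ± 0.14), Cdh1, which encodes E-cadherin (0.67 ± 0.15), Lama5, a laminin chain (0.78 ± 0.13), and Fn1, fibronectin (0.52 ± 0.06), were the higher members, each in 6 of 6 pairs. Epcam was at 104 to 153 CPM in EB and at 38.7 to 88.9 CPM in Neural libraries. Itgb3, a subunit of the vitronectin receptor, was 3.45-fold lower (adjusted p = 0.002).

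Hypoxia response genes included 10 of 21 members higher and 1 lower (median 0.31, -0.0053 at d0). Egln3, a prolyl hydroxylase that marks Hif for destruction and is itself a Hif target, was at 26.7, 33.4 and 43.4 CPM in EB and at 8.19, 8.41 and 10.6 CPM in Neural libraries. The courses were apart in every pair (1.98 ± 0.10, 3.93-fold, adjusted p = 2.2e-05). Ldha, which makes lactate from pyruvate, was at 817, 1246 and 1626 CPM in EB and at 134, 392 and 679 CPM in Neural libraries (1.75 ± 0.26, adjusted p = 0.0017). Bnip3 (1.18 ± 0.14), a mitophagy receptor, Ndrg1 (1.36 ± 0.28) and Ero1l (0.47 ± 0.09) were higher in 6 of 6 pairs. Vegfa, a classical Hif target, was the lower member (-0.86 ± 0.24, adjusted p = 0.025) and did not pass without the 2iL d1.5 pair (adjusted p = 0.063) or without the 2iL d2 pair (adjusted p = 0.064). At d0 from 2iL, Vegfa already differed between the courses by -0.6.

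Of 22 genes of serine synthesis and Atf4, 13 were lower and 1 higher, with a median of -0.36, and the d0 libraries from 2iL differed by about as much (-0.39). Atf5 (-1.44 ± 0.16), Chac1 (-1.39 ± 0.23) and Psat1, an enzyme of serine synthesis (-0.62 ± 0.09), were lower in 6 of 6 pairs, and Asns in 5 of 6. At d0 from 2iL, Chac1 already differed by -1.5, Psat1 by -0.35, Asns by -0.26 and Atf5 by -0.24. Atf4 itself did not pass (-0.14 ± 0.11, adjusted p = 0.33). Slc7a3, an arginine transporter, was the higher member (0.67 ± 0.12).

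Of the insulin and FoxO list 9 of 18 members were higher and 2 lower. Klf15, a metabolic regulator, was 3.93-fold higher (adjusted p = 0.0017), and Txnip, which slows glucose uptake, was 2.45-fold lower (83.7 to 278 against 313 to 444 CPM, adjusted p = 0.0031). Of lysosome genes 9 of 15 were higher and 0 lower (median 0.32, -0.41 at d0), 2 of 15 in the pairs from 2iL alone and 10 of 15 in those from SL. In the extraembryonic endoderm list these counts were 2 of 16 and 10 of 19, and its part in the lysosome genes was not tested. Over all pairs, Hexa was 1.97-fold (adjusted p = 0.00037) and Ctsl 1.82-fold higher (adjusted p = 0.0093). Of hormone response genes 4 of 9 were higher and 0 lower, and Sgk1, a serum and glucocorticoid induced kinase, was at 131 to 250 CPM in EB and at 68 to 122 CPM in Neural libraries (0.98 ± 0.07, adjusted p = 7e-05). Of the oxidative and metal response list 7 of 22 were higher and 3 lower, with Gstm1, a glutathione transferase (1.88 ± 0.25), and Mt1, a metallothionein (0.93 ± 0.20), above every Neural library. Of 19 cell cycle genes 4 were higher, among them Mycn (1.06 ± 0.10), and 6 lower, among them Ccnd2 (-0.99 ± 0.15) and Cdkn2c (-1.19 ± 0.22). Over all genes tested, 18.5% were higher and 16.1% lower. The counts, higher and lower, were 2 and 2 of 20 for Srf and Yap targets, 2 and 1 of 14 for p53 targets, 1 and 1 of 11 for Notch, 2 and 2 of 8 for DNA methylation, and 1 and 5 of 15 for the unfolded protein and heat shock list. In the last, Hspa1b, whose reads may be split with the near-identical Hspa1a, was 1.88-fold lower (adjusted p = 0.013).

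**Figure D4:**
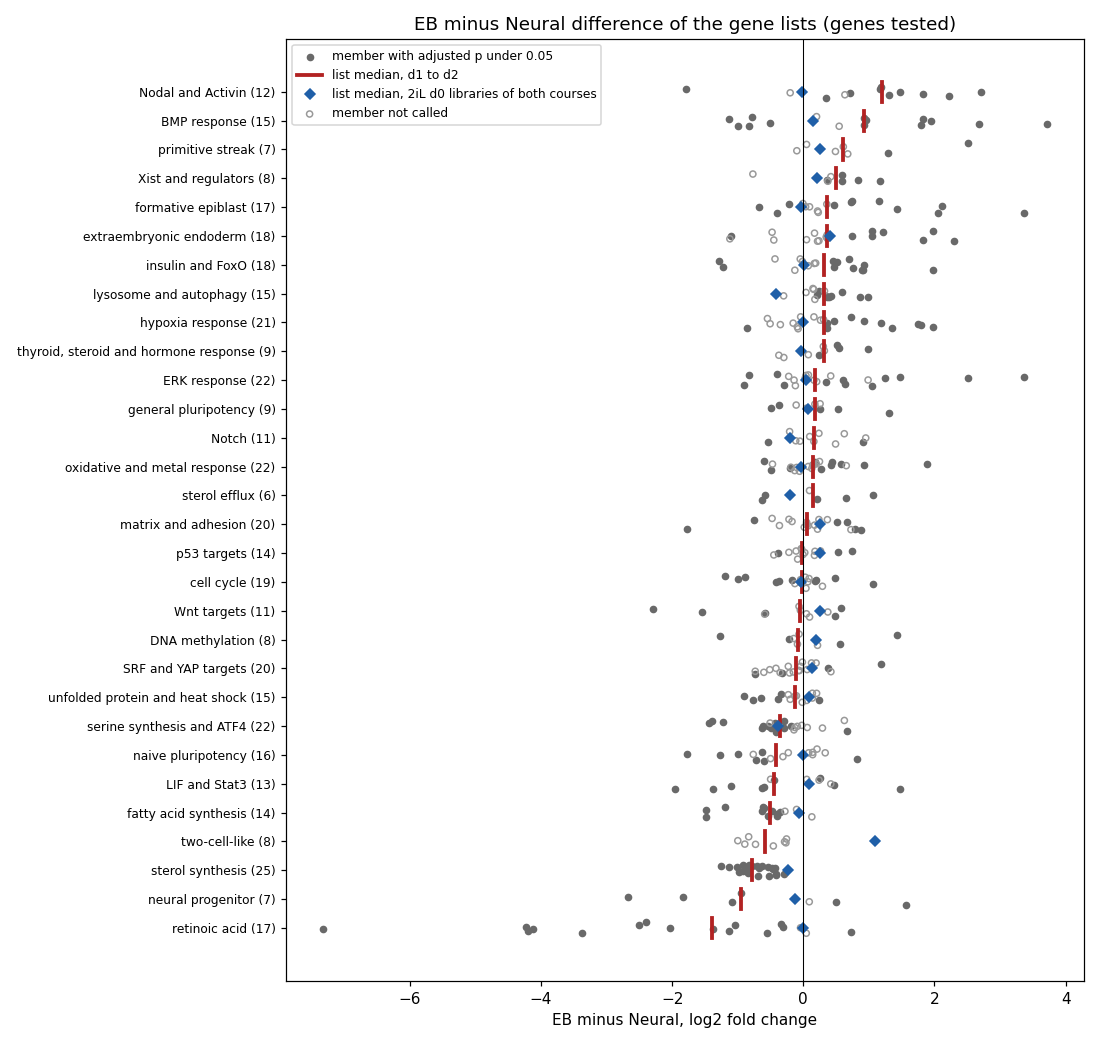
EB minus Neural log2 fold change (x axis) of the members of 30 gene lists (y axis, genes tested in parentheses), ordered by list median. Filled points have an adjusted p under 0.05, open points do not, red bars are list medians at d1 to d2, and blue diamonds are list medians between the 2iL d0 libraries of both courses. The retinoic acid list lies lowest (-1.4) and the Nodal and Activin list highest (1.2), and for the serine synthesis and Atf4 list the diamond (-0.39) lies beside the bar (-0.36).

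The 2-cell-like list, which holds genes of a rare ESC state such as the multicopy Zscan4 family, had 0 of 8 members called in either direction by edgeR over all pairs, with adjusted p-values of 0.18 to 0.77. Within media it split, with 4 of 8 members higher in EBs from 2iL (median 1.1) and 7 of 10 lower in EBs from SL (median -1.7). The test of this difference between media passed for 0 of 8 members. At d0 the 2iL libraries of the courses differed by a list median of 1.1, as much as at d1 to d2 from 2iL.

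Many of the largest rises lay outside the lists. Enpp2 (autotaxin), which makes lysophosphatidic acid, was at 29.9, 99.2 and 218 CPM (lowest, median, highest) in EB and at 2.05, 5.17 and 8.87 CPM in Neural libraries. With no overlap (4.39 ± 0.20, 21-fold, adjusted p = 2e-05), it also lay far above FA, which was at 1.89 to 7.47 CPM. Irgm1 (3.36 ± 0.32), Oasl2 (3.75 ± 0.49) and Gbp2b (3.17 ± 0.56), each known to be induced by interferon, were among the 12 largest rises, and no interferon list was examined. Irgm1 was at 18.6 to 82.7 CPM in EB and at 2.09 to 8.05 CPM in Neural libraries, and at d0 from 2iL at 2.28 CPM in the EB and 0.449 CPM in the Neural library. Oasl2 and Gbp2b overlapped between the courses and have close relatives that could share their reads. Slc40a1, the iron exporter ferroportin (3.27 ± 0.29), Slc9a7, a sodium and proton exchanger (3.29 ± 0.19), Pxdc1 (3.23 ± 0.26) and Rbbp8nl (3.36 ± 0.31) were higher in EBs without overlap of the courses. Sgol2b, a paralog of shugoshin 2, had the largest value (4.53 ± 0.49, 1.92 to 11.5 against 0 to 0.475 CPM), and was at 2.69 to 4.54 CPM in the 2iL libraries of d0. Kctd12b was 11.3-fold higher (adjusted p = 0.00039).

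Arhgef28, a guanine nucleotide exchange factor, and Sptb, which encodes beta spectrin, were among the 6 named genes higher with the smallest p. Arhgef28 was at 27.6, 31.4 and 36.2 CPM in EB and at 4.98, 6.82 and 7.77 CPM in Neural libraries (2.24 ± 0.10), and Sptb was 2.27-fold higher, each without overlap. Among genes lower, H2afy2, which encodes the histone variant macroH2A2, was at 1.86, 4.63 and 8.85 CPM in EB and at 15.2, 28.6 and 48.3 CPM in Neural libraries (-2.68 ± 0.16, adjusted p = 4.7e-05). Zfp618 (-1.91 ± 0.11) and Zfyve28 (-1.98 ± 0.12) were lower in 6 of 6 pairs. Among the largest falls outside the lists were those of Arg1, the arginase of the urea cycle (-5.07 ± 0.51), Csn3, a milk casein (-3.61 ± 0.54), Greb1l (-3.00 ± 0.24) and Rhobtb1 (-2.84 ± 0.34). Greb1l was at 2.63 to 16.6 CPM in EB and at 19.2 to 147 CPM in Neural libraries, and Arg1 was at most 0.452 CPM in EBs.

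Xist is the long non-coding RNA that silences an X chromosome in female cells, and here the cells are male. Of 8 genes of the Xist list tested, 5 were higher in EBs and 0 lower, with a median of 0.5 (0.21 at d0). Xist itself did not pass (0.42 ± 0.24, adjusted p = 0.2). It was at 2, 24.6 and 15.3 CPM in EBs from 2iL at d1, d1.5 and d2 and at 1.62, 11.5 and 13.5 CPM in the Neural libraries, and from SL at 4.55, 4.27 and 3.17 CPM against 1.62, 5.04 and 3.87 CPM. The largest difference of a pair was 1.44 on the log2 scale. Ftx, a non-coding RNA that activates Xist, was 2.25-fold higher (3.41 to 26 against 2.61 to 9.52 CPM, adjusted p = 0.0035), and at d0 from 2iL was at 1.54 and 0.649 CPM. Tsix, the antisense transcript of Xist that was counted by strand (0.59 ± 0.11), Tsx (0.83 ± 0.14) and Rlim, the ubiquitin ligase that removes the Xist repressor Rex1 (0.58 ± 0.07), were higher in 6 of 6 pairs.

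Whether the difference between courses depended on the starting medium was tested with the interaction of course and medium. It passed for 57 of 14018 genes (0.407%), 30 with a larger and 27 with a smaller EB minus Neural difference from 2iL, and 13 of the 57 were replication-dependent histone genes. The 5 genes with the smallest p were Mmp25, Gm10324, Gdpd5, Gm6576 and Hist1h2bn, each with an adjusted p of 0.04. Reads of Hist1h2bn may be shared with other histone H2b genes. Mmp25, a membrane metalloproteinase, was at 16.6, 25.9 and 44.8 CPM in EBs from 2iL at d1, d1.5 and d2 against 4.56, 7.17 and 12 CPM in Neural libraries, and from SL at 6.23, 12.8 and 21.9 CPM in EBs. The differences of the pairs were 1.84, 1.84 and 1.89 on the log2 scale from 2iL and 0.34, 0.42 and 0.62 from SL (1.42 between media). Gdpd5, a phosphodiesterase that releases GPI anchors, was at 1.53 to 2.26 CPM in EBs from 2iL and at 11.2 to 15.8 CPM in EBs from SL, against 4.7 to 9.62 and 13 to 15.7 CPM (-1.88). Ldha passed as well (1.36, adjusted p = 0.04), with Neural libraries at 134 to 412 CPM from 2iL and 373 to 679 CPM from SL. With edgeR, 0 genes passed without the 2iL d1.5, the SL d1.5 or the SL d2 pair, 26 without the 2iL d2 pair, and 147 and 203 without the 2iL d1 or the SL d1 pair. Where 0 passed, the differences of Ldha were 1.24, 1.39 and 1.31 (adjusted p = 0.22, 0.12 and 0.089) and those of Mmp25 were 1.42, 1.39 and 1.51 (adjusted p = 0.22, 0.094 and 0.083).

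A change of the difference from d1 to d2 was tested with day as a number and passed for 138 genes (0.984%), with 60 differences rising and 78 falling with day. Zeb1, a repressor of epithelial genes, and Spred1 had the smallest p. Zeb1 was at 21.5, 8.79 and 3.22 CPM in EBs from 2iL at d1, d1.5 and d2 and at 15.3, 6.95 and 2.52 CPM from SL. In Neural libraries it was at 46.3, 41.2 and 31.2 CPM and at 34.1, 27 and 24.6 CPM, so EBs moved away from Neural cells (-2.14 per day, adjusted p = 0.0098). Spred1 was at 127 and 137 CPM in EBs at d1 and at 69.4 and 70.7 CPM at d2, while in Neural libraries it went from 143 and 160 to 206 and 218 CPM (-1.40 per day). Stra8 (-3.07), Hoxb1 (-4.36), Meis2 (-3.36), Olig3 (-4.49), Sox1 (-2.31), Glipr2 (-1.34) and F2rl1, a protease-activated receptor (-2.22), also had differences that fell with day. Gbx2, a homeobox gene of naive ESCs and of the hindbrain, was at 39.2 and 27.1 CPM in EBs at d1 and at 10.6 and 5.19 CPM at d2, and at 44.6 and 35.8 and then 109 and 119 CPM in Neural libraries (-3.62 per day, adjusted p = 0.019).

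Differences that rose with day were found for Otx2 (1.36), Fgf4 (1.67), Enpp2 (1.36), Etv5 (0.75), Slc7a3 (0.76) and Nanog (1.29). Nanog was lower in EBs at d1, at 167 and 137 CPM against 249 and 175 CPM in Neural libraries, and higher at d2, at 70.5 and 66.8 CPM against 36.5 and 41.2 CPM (adjusted p of the change 0.016). Otx2 was at 95.4 and 59.7 CPM in EBs at d1 and at 113 and 104 CPM at d2, while in Neural libraries it went from 27 and 27.6 to 16.7 and 13.9 CPM. With edgeR, 0 genes passed for the change with day without the 2iL d1, the 2iL d2 or the SL d1 pair, when the change of Zeb1 was -2.14, -2.12 and -2.20 per day with adjusted p-values of 0.13, 0.073 and 0.076. Without the SL d1.5 or the SL d2 pair, 39 and 29 genes passed, Zeb1 among them (adjusted p = 0.024 and 0.019). In these fits Hoxb1, Olig3, Meis2, Sox1, Slc7a3 and Etv5 did not pass (adjusted p = 0.053 to 0.11). Nor did Fgf4 without the SL d2 pair (0.052) or Etv5 without the 2iL d1.5 pair (0.053).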

How the data were processed

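Ribosomal RNA was depleted from total RNA and strand-specific libraries were sequenced. The authors trimmed the reads with TrimGalore, aligned them with TopHat2 to GRCm38 (mm10), using the Ensembl annotation, assigned them to genes with featureCounts, and deposited raw counts as 1 table per library. The tools are given in the study's methods and the submitters' processing notes, without versions. The counts of 35372 genes were read as deposited. Counting by strand keeps antisense genes apart, but reads of near-identical copies may be lost or split.

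The 6 EB and 6 Neural libraries of d1, d1.5 and d2 were compared in R 4.3.3 with edgeR 4.0.16 (TMM, filterByExpr by course, quasi-likelihood test, medium and day as a block of 6 levels, 5 residual degrees of freedom). Course by medium and course by day (day as a number) were tested in the same frame. P-values were adjusted over the 14018 genes tested at a threshold of 0.05. Standard errors of log2 fold changes come from the test statistic. CPM were scaled with TMM factors over the 18 libraries of d1 to d2 and the 4 of d0. Differences within pairs, used for outlying pairs and for d0, carry a pseudocount of 0.1 CPM. Same-labelled EB and Neural libraries deviated together from their course means (r between 0.548 and 0.77 across genes, highest for the own label in all 6 pairs), and the pairing comes from the labels of medium and day. Library shares were compared with exact sign-flip tests in Python 3.11.15 with scipy 1.17.1. The steps were tested on simulated data.

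The floor of 3 counts covers counting error only, while standard errors and SDs also hold the spread between libraries. Positions are from GENCODE vM21 (GRCm38) and promoters from RefSeq. Alternatives were DESeq2 1.42.0, RLE factors, no filter, no block or medium and day terms in its place, all 18 libraries, summed days, each pair, medium or day left out and, added after seeing the data, pairs thinned to equal depth. Named genes were the 12 largest rises and falls (same direction in 6 pairs, at least 5 CPM in the higher course, without predicted, mitochondrial, ribosomal and histone genes), the 6 smallest p in each direction, the 5 smallest in each interaction, and in each list up to 6 called members by p and up to 3 others. The comparison, its members and the lists were chosen with earlier results of these data known. Some genes that met this rule are not reported here. Libraries of later days were not used here.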

Additional observations from a re-analysis of the deposited data

Results flagged for a closer look

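Among 135 genes named or examined, the 6 differences between EB and Neural libraries of a pair were searched for a pair that stands apart (gap to its nearest neighbour over the range above 0.625), which chance gives in about 5% of groups. It was found for 5 genes. Klf4 was lowest in the 2iL d1.5 pair (0.723), Hnf4a lowest in the 2iL d2 pair (0.625), Cubn (0.651) and Dab2 (0.644) lowest in the 2iL d1 pair, and Fn1 highest in the 2iL d1.5 pair (0.764).

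The difference between courses differed between starting media by the test of course and medium for 6 of these genes, given as 2iL minus SL on the log2 scale. The values were 1.42 for Mmp25, 0.83 for Gm10324, -1.88 for Gdpd5, -0.90 for Gm6576, -0.87 for Hist1h2bn and 1.36 for Ldha. It changed with day for 16 of them. Per day, the log2 difference rose by 1.36 for Enpp2, 0.75 for Etv5, 1.67 for Fgf4, 1.36 for Otx2, 1.29 for Nanog and 0.76 for Slc7a3. Per day it changed by -3.07 for Stra8, -4.49 for Olig3, -4.36 for Hoxb1, -2.14 for Zeb1, -1.40 for Spred1, -1.34 for Glipr2, -2.22 for F2rl1, -3.36 for Meis2, -3.62 for Gbx2 and -2.31 for Sox1.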

How the results depend on the processing

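DESeq2's Wald test, RLE factors, no filter, medium and day terms in place of the block, all 18 libraries and thinning each pair to equal depth kept the counts of genes higher (2591) and lower (2261) within 1.5 times, and 0 genes were called in the opposite direction in any alternative. Higher and lower counts were 1094 and 916 with no replicate block, where the pairing by medium and day is not used, 201 and 153 with days summed, 1689 and 1439 in pairs from 2iL, 1520 and 1267 in pairs from SL, 965 and 743 without the d1.5 pairs and 1529 and 1419 without the d2 pairs, but 2127 and 1841 without the d1 pairs, and the cause was not tested. Leaving out 1 pair gave 1840 to 2334 genes higher and 1539 to 1982 lower.

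Course by medium (57 genes) gave 396 with DESeq2, 308 with no filter, 1 with no replicate block and 0 to 203 without 1 pair. Course by day (138 genes) gave 371 with DESeq2, 257 with no filter, 10 with no replicate block and 0 to 110 without 1 pair. The cause of these shifts was not tested. At an unadjusted p under 0.05, 2259 and 2133 genes passed these tests.

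Of the 125 named genes called, 0 reversed in any alternative, 0 lost the call with DESeq2, RLE factors, no filter or thinning, while 70 lost it with days summed, 40 with no replicate block, 33 of 124 without the d1.5 pairs and 17 of 123 in pairs from 2iL. Genes not called changed sign. Cyp26a1 was at -0.25 with DESeq2, -2.08 in pairs from 2iL, -0.46 without the d2 pairs and -0.53 to 0.61 without 1 pair, below 0 without any of the 3 SL pairs. Nanog was at -0.07 with no replicate block, -0.24 with days summed and -0.10 without the d2 pairs. Esrrb was at -0.11, -0.30 and -0.13 in these, -0.31 in pairs from 2iL and -0.08 to 0.29 without 1 pair, below 0 without the SL d2 pair. In pairs from SL, Zfp42 was at 0.01 and Gm6576 at 0.23. Levels under about 3 counts (0.0764 to 0.197 CPM) were not measurable.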
